A study of Rattus norvegicus with 32 samples.

Results

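Acute-phase proteins are secreted proteins whose plasma levels move during inflammation. 10 genes of this class and of secreted antimicrobial defence were followed in the septic rat heart: Saal1, Wfdc21, Lcn2, A2m, Orm1, Hp, Hpx, Cp, Pglyrp1 and Serpina3n. They were taken as every probe that carried one of these names in either version of the array annotation, which gave 16 probes for 10 of the 34912 genes named on the array. Members were chosen by their measured log2 change from sham to CLP, as the largest risers, together with other acute-phase genes, so the change between those groups is given as a description, with no test. Testing in a sex required detection above background in 80% or more of the rats in 1 of its groups. This left 14 probes in the males and 13 in the females, for 9 of the 10 genes in each sex. Hpx had none.

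Each of the 32 arrays held RNA from the left ventricle of a young adult Wistar rat, hybridised in 1 colour. The groups were sham surgery (5 males and 5 females), CLP (5 and 5) and CLP plus landiolol (6 and 6), with hearts taken at 20 h. CLP, cecal ligation and puncture, opens the gut into the abdomen and is a surgical model of sepsis. Landiolol, a β1-selective adrenergic blocker with a brief action, was infused after CLP, and the other rats received saline. Rats of all groups had surgery, buprenorphine for pain, imaging and perfusion of the isolated heart before freezing, and no group received landiolol without CLP.

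In the liver, cytokines such as IL-6 and IL-1 switch on acute-phase genes through STAT3, C/EBP factors and NF-kappaB. The secreted proteins then bind lipids, free hemoglobin, heme, bacterial iron carriers or proteases. Organs other than the liver can transcribe some of these genes, and Lcn2 and Pglyrp1 are also neutrophil products.

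The tissue matched its label: all 9 markers of cardiac myocytes passed the filter in both sexes, with a mean log2 level per array between 16.65 and 17.61. Between 34920 and 43155 spots per array were well above background and 0 were saturated. The 4 slides each held 1 sex, so sex and slide cannot be told apart in the levels, and each group lay on both slides of its sex. All female sham arrays lay in row 1 of a slide and all female CLP plus landiolol arrays in row 2. Levels are log2 of the background-subtracted signal after quantile normalisation within a sex, as mean ± SD, and changes are differences of these levels ± SE. In ventricle RNA, fewer cells of a type and less RNA per cell cannot be told apart.

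The name Saal1 is shared by neighbouring genes. Both annotation versions gave it to a probe at chr1:97248442-97248501 (rn4, minus strand), whose transcript was not matched in RefSeq. RefSeq (GRCr8) lists Saal1 as a synonym of Saa3, a serum amyloid A gene, and also as the symbol of gene 691143. A probe matched to gene 691143 by accession lay at chr1:97232659-97232718. Which of the genes the first probe measures was not settled, and it is called by its array name. The first 30 of the 60 bases of both probes are shown because the result depends on which transcript was measured.
Probe named Saal1: ttcctaaaacctggatccctaaacatccca
Probe of gene 691143: acccaagatgacttccatatgaagatcttg

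To compare motifs, the promoter of Saa3 is shown first, as 1 of the 2 genes that the name Saal1 may stand for. With it are the promoters of Lcn2, Orm1 and Serpina3n, called higher in CLP than in sham in both sexes by the rule given below. That of Cp, called higher in males only, is also shown. They are the 250 bases before the start in RefSeq (GRCr8), 5′ to 3′, and capitals mark a match on either strand to TTCNNNGAA (STAT factors), TTNNGCAA (C/EBP) or the kappaB motif. These occurred in 7.67%, 9.22% and 6.33% of 33469 promoters of the same length.
Saa3 (chr1:106358431-106358680, minus strand): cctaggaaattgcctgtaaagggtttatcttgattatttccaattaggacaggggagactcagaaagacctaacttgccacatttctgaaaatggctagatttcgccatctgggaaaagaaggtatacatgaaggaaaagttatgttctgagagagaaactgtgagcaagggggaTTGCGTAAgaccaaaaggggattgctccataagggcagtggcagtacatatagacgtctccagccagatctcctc
Lcn2 (chr3:36081781-36082030, minus strand): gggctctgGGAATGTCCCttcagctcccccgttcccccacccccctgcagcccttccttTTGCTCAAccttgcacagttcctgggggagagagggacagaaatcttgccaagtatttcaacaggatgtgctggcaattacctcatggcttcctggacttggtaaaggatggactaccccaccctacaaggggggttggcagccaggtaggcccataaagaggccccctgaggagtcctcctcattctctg
Orm1 (chr5:81788259-81788508, plus strand): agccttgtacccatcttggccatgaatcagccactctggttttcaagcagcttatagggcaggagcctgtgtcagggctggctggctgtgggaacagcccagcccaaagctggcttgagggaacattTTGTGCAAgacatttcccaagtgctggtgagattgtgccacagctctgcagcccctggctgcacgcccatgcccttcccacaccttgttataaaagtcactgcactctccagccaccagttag
Cp (chr2:104368420-104368669, plus strand): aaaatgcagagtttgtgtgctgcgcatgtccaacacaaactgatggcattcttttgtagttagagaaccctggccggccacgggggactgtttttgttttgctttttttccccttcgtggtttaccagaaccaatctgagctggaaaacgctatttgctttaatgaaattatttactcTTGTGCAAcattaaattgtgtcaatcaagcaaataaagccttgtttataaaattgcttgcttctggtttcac
Serpina3n (chr6:129088142-129088391, plus strand): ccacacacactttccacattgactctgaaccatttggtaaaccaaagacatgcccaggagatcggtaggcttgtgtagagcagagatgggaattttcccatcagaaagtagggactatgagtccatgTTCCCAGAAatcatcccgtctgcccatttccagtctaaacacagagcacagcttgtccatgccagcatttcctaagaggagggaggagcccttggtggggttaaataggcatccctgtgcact
A C/EBP match lay 75 to 68 bases before the start of Saa3, 123 to 116 before Orm1, 72 to 65 before Cp and 191 to 184 before Lcn2. Lcn2 also held a kappaB match at 242 to 233, and Serpina3n a STAT match at 123 to 115. The promoters of Wfdc21, which was also called higher in CLP in both sexes, and of gene 691143, the other candidate for the name Saal1, held 0 matches. They are not shown. Hpx, which was not tested, held a C/EBP match, and Pglyrp1, which was tested and not called in either sex, a kappaB match. A match is a run of letters and no evidence of binding. Promoters of A2m and Hp are not shown.

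From sham to CLP, 7 of the 9 tested genes were called higher in the males, namely Saal1, Wfdc21, Lcn2, A2m, Orm1, Cp and Serpina3n. In the females 5 were, namely Saal1, Wfdc21, Lcn2, Orm1 and Serpina3n, and 0 were called lower in either sex. A gene was called when at least 1 of its probes passed an FDR of 1% in limma. Of all genes tested, 4.4% were called higher and 4.58% lower in the males, against 2.09% and 2.05% in the females. This contrast chose genes of the set, so the counts are a description, no test of the set, and nothing is read from them. With the row on the slide as a term, the female count was 3.

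**Figure D1:**
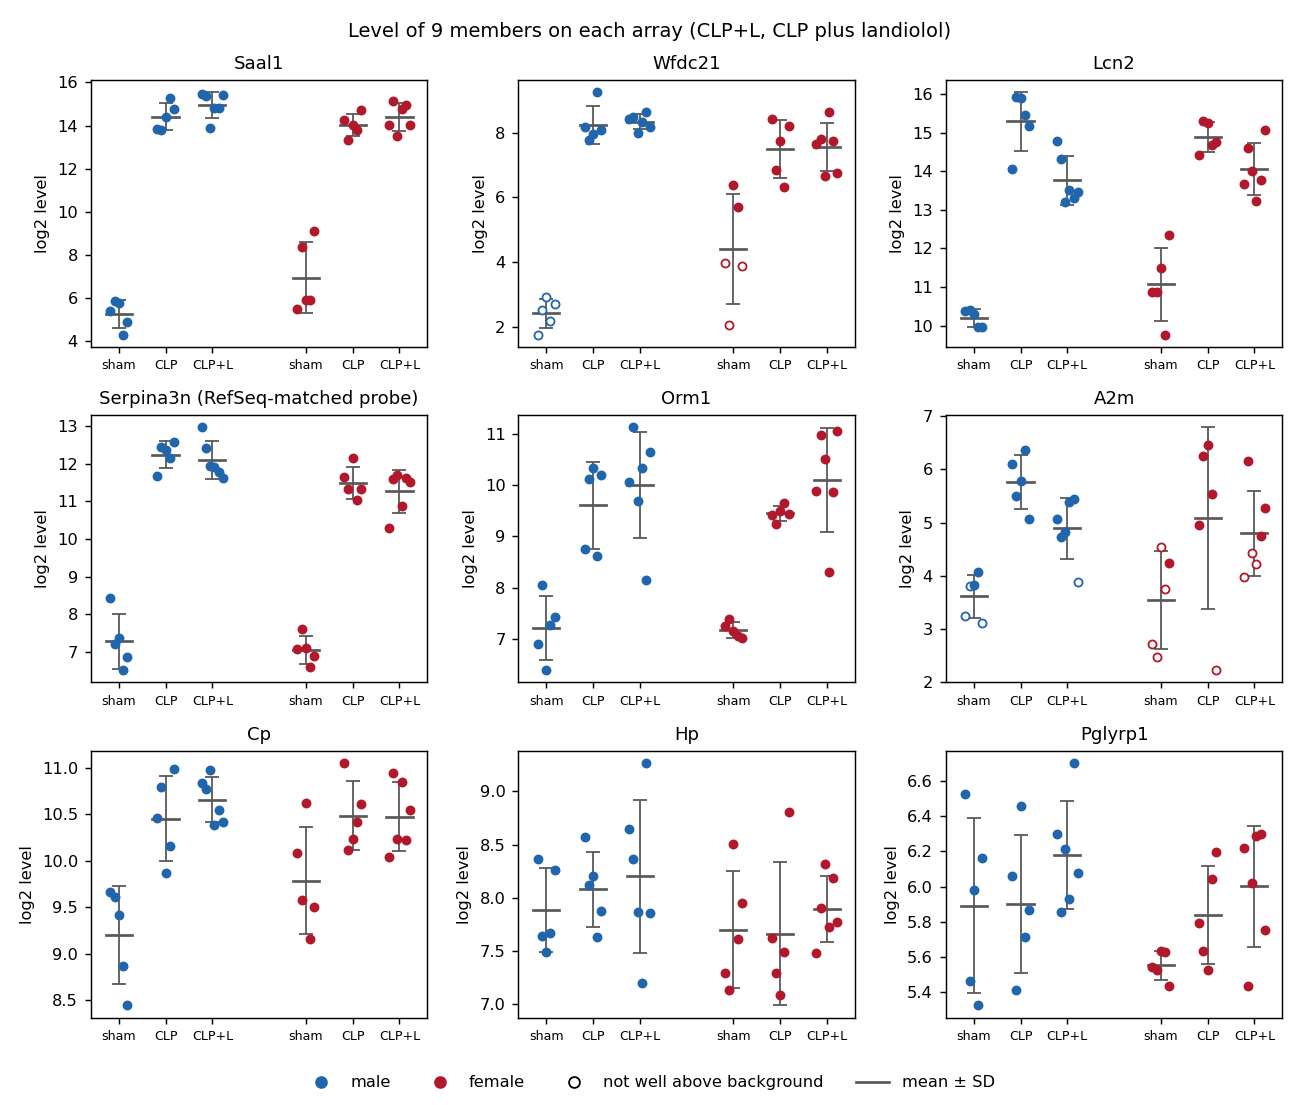
Level of 9 genes on each array (y axis, log2 signal after quantile normalisation) by group (x axis; CLP+L, CLP plus landiolol), with males in blue, females in red, open points not well above background, and lines with bars for mean ± SD. Saal1, Lcn2 and Serpina3n lay above every sham array of the same sex on all CLP and CLP plus landiolol arrays, the male Lcn2 mean was 15.30 in CLP and 13.76 in CLP plus landiolol, and Hp overlapped between all groups.

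The probe named Saal1 had the widest difference of the set. Saa3, 1 of the genes that the name may stand for, belongs to the serum amyloid A family. Proteins of that family travel on high-density lipoprotein and are classic plasma markers of inflammation. Whether the probe measures Saa3 was not settled. In males the levels of the probe were 5.39, 5.87, 5.76, 4.31 and 4.91 on the sham arrays and 13.84, 13.80, 14.39, 15.29 and 14.76 on the CLP arrays. The groups lay far apart, by 9.17 ± 0.37 or 576-fold. With normexp background correction and an offset of 50, which compresses dim signals, the male difference was 7.67. In females the levels were 5.50, 8.35, 5.91, 5.91 and 9.09 in sham and 14.23, 13.34, 14.01, 13.81 and 14.71 in CLP. Female sham replicates 2 and 5 were high for their group but below every CLP array, and the difference was 7.07 ± 0.60. With landiolol the levels ran from 13.91 to 15.46 in males (median 15.10) and from 13.52 to 15.12 in females (median 14.39), overlapping CLP in both sexes. The probe of gene 691143 stayed between 7.54 and 8.52 on all 32 arrays.

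**Figure D2:**
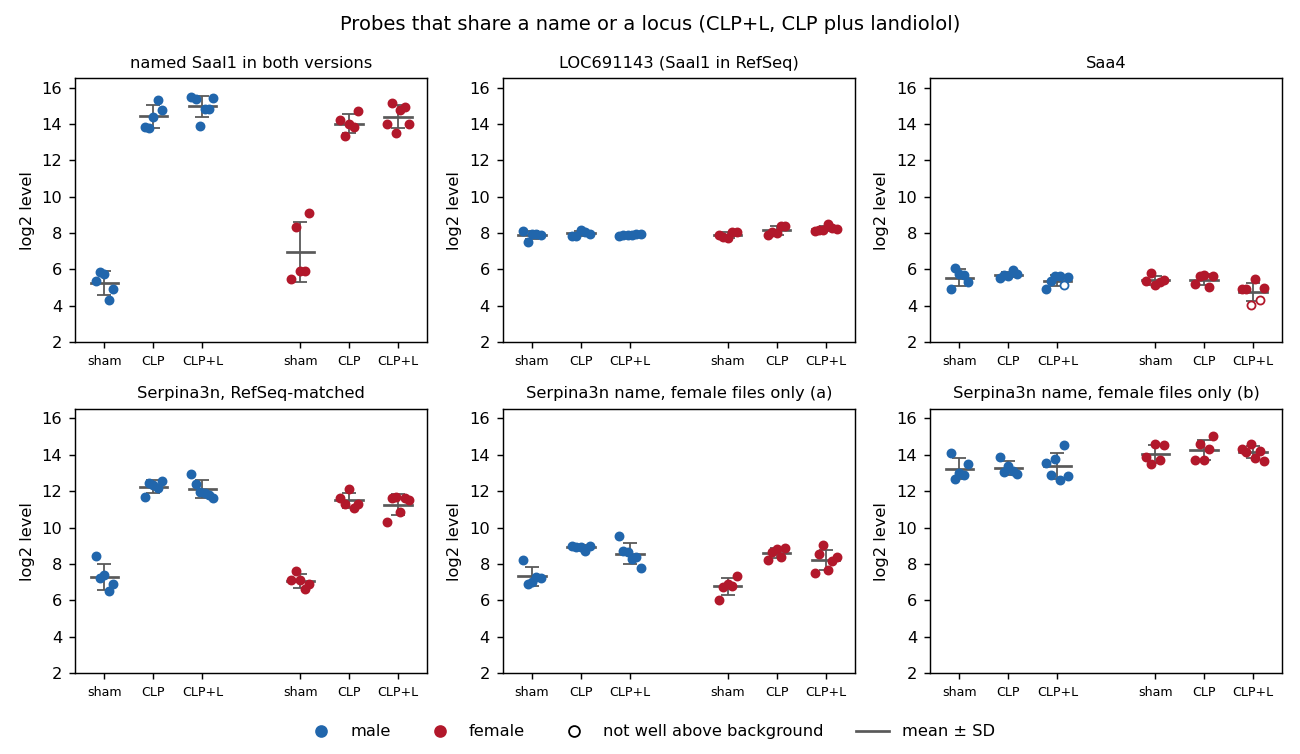
Levels on each array (y axis, log2) of probes that share a name or locus, by group (x axis; CLP+L, CLP plus landiolol), males in blue, females in red, open points not well above background, with mean ± SD. The probe named Saal1 went from 5.25 to 14.42 in males while that of gene 691143 stayed near 7.90, and the 3 Serpina3n-named probes shown differed in pattern.

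Among the antimicrobial proteins, Wfdc21, a secreted protein of the whey acidic protein family, was not well above background on any male sham array. Its male levels were 1.76, 2.52, 2.91, 2.19 and 2.70 in sham and 8.18, 7.76, 7.97, 9.26 and 8.09 in CLP, where all arrays were above background. In the processed signal CLP was at least 35.4-fold higher, taking the lowest detected signal of each array as the floor. This bound does not hold for the other processings given below. The female levels were 3.98, 2.07, 6.39, 5.72 and 3.88 in sham, with the third and the fourth array above background, and 8.42, 6.84, 7.75, 6.33 and 8.20 in CLP. These groups overlapped, and the difference was 3.10 ± 0.67. With normexp background correction and an offset of 50, which compresses dim signals, the difference was 2.57 in males and 1.55 in females, against 5.83 and 3.10 in the processed signal. In the authors' own table of normalised values it was 3.33 and 1.93.

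Lcn2, which captures bacterial iron carriers, was already well expressed in sham. Its male levels were 10.38, 10.39, 10.30, 9.95 and 9.96 in sham and 14.05, 15.91, 15.89, 15.45 and 15.16 in CLP. In females they were 10.86, 10.87, 11.49, 9.76 and 12.35 in sham and 14.43, 15.30, 15.26, 14.68 and 14.77 in CLP. No CLP array overlapped sham, and the difference was 5.10 ± 0.35 in males and 3.82 ± 0.41 in females. Pglyrp1, which binds bacterial peptidoglycan, had group means between 5.55 and 6.18, and its sham and CLP groups overlapped in both sexes.

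Of the protease inhibitors, Serpina3n, an inhibitor of serine proteases, was read by several probes that went different ways. The probe matched to its RefSeq transcript (rn4 chr6:128469197-128469256) had male levels of 8.44, 7.21, 7.37, 6.53 and 6.88 in sham and 11.66, 12.44, 12.35, 12.15 and 12.58 in CLP. Female levels were 7.10, 7.63, 7.10, 6.61 and 6.89 in sham and 11.64, 11.32, 12.14, 11.05 and 11.32 in CLP. The groups were apart in both sexes, by 4.95 ± 0.32 (31.0-fold) and 4.43 ± 0.28 (21.5-fold). 4 further probes bore this name in the female files only. The brightest of them and of all 5 (chr6:128348466-128348524) differed by 0.06 ± 0.35 and 0.23 ± 0.28, and the next (chr6:128347919-128347978) by -0.06 ± 0.31 and 0.31 ± 0.31. A probe at chr6:128470465-128470524 differed by 1.60 ± 0.28 and 1.83 ± 0.28, and the last (chr6:128443870-128443929) was at background. RefSeq places Serpina3m, Serpina3c and Serpina3l on the same chromosome, and which gene the flat probes measure was not tested. Serpina3n values below are from the RefSeq-matched probe.

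A2m, a broad protease trap and a major acute-phase protein of the rat, was dim. Its brighter probe had male levels of 3.24, 3.81, 3.82, 4.07 and 3.11 in sham and 6.11, 5.49, 5.78, 6.37 and 5.07 in CLP, a difference of 2.15 ± 0.30 without overlap. Female levels were 2.71, 2.47, 4.55, 3.76 and 4.23 in sham and 4.96, 6.26, 6.45, 5.55 and 2.22 in CLP. The last CLP array was not above background and lay below every sham array, and the difference was 1.55 ± 0.68, or 2.27 without that array. In sham this probe was above background on only 2 of 5 male and 1 of 5 female arrays, so both differences rest largely on sham values near background. With normexp and the same offset the male difference was 0.65.

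Of the binding proteins, Orm1, a plasma carrier of drugs and lipids, had male levels of 6.89, 8.06, 6.39, 7.27 and 7.43 in sham and 8.75, 10.13, 10.34, 8.62 and 10.20 in CLP. Female levels were 7.25, 7.39, 7.15, 7.06 and 7.01 in sham and 9.42, 9.24, 9.50, 9.64 and 9.44 in CLP. The groups did not overlap, with differences of 2.40 ± 0.50 and 2.27 ± 0.38. Cp, the copper protein that oxidises iron for loading onto transferrin, had male levels of 9.66, 9.61, 9.41, 8.87 and 8.44 in sham and 10.46, 10.80, 9.86, 10.16 and 10.99 in CLP, a difference of 1.26 ± 0.25. In females its groups overlapped, with 0.70 ± 0.27. The dimmer Cp probe differed by 1.74 ± 0.32 in males and 0.72 ± 0.31 in females. Hp, which binds free hemoglobin, overlapped between sham and CLP in both sexes (0.19 ± 0.32 and -0.04 ± 0.31). Hpx, which binds heme, was above background on 3 of 32 arrays.

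The male minus female difference in the change from sham to CLP was 2.06 ± 0.73 for Saal1, 1.31 ± 0.56 for Lcn2 and 0.44 ± 0.44 for the RefSeq-matched Serpina3n probe. By the brighter probe it was 0.70 ± 0.78 for A2m and 0.53 ± 0.38 for Cp. It was 0.23 ± 0.46 for Hp, 0.10 ± 0.65 for Orm1 and -0.27 ± 0.30 for Pglyrp1. The other tested probes named Serpina3n gave -0.17 ± 0.46, -0.37 ± 0.45 and -0.24 ± 0.40. For Wfdc21 none is given, since its male change is a lower bound. For Saal1 and Lcn2 the female sham levels had SDs of 1.64 and 0.95, against 0.65 and 0.22 in the males. These are descriptions, with no test.

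The next comparison asked what landiolol changed after CLP. In males Lcn2 fell and 0 of the 9 tested genes rose, and in females limma called 0 of 9. Of all genes tested, 0.983% were called higher and 0.841% lower in the males, and 0.0668% and 0.0462% in the females, at an FDR of 5%. Of the 9 genes in females, 0 also passed an unadjusted p of 0.05, and the SAM statistic called 0. The CLP arrays were shared with the contrast that chose the set.

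Lcn2 in the male CLP plus landiolol group was at 13.19 at the lowest, 13.49 at the median and 14.78 at the highest, against 14.05 to 15.91 in CLP. The groups overlapped, since CLP replicate 1 was low for its group and landiolol replicates 1 and 2 were high for theirs. The change was -1.53 ± 0.33 (95% interval -2.25 to -0.82; limma adjusted p = 0.0314), and within the slides it was -1.19 and -1.88. The call was lost without the filter on dim probes (limma adjusted p = 0.0619), with only these 2 groups in the fit (limma adjusted p = 0.098) and on leaving out any of 8 single arrays, where the change lay between -1.57 and -1.38. In females Lcn2 ran from 13.22 to 15.08 (median 13.88) with landiolol, a change of -0.83 ± 0.39 (-1.67 to 0.01; limma adjusted p = 0.539). The change in males minus that in females was -0.74 (-1.84 to 0.36; limma adjusted p = 0.969), so a difference between the sexes was not shown.

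**Figure D3:**
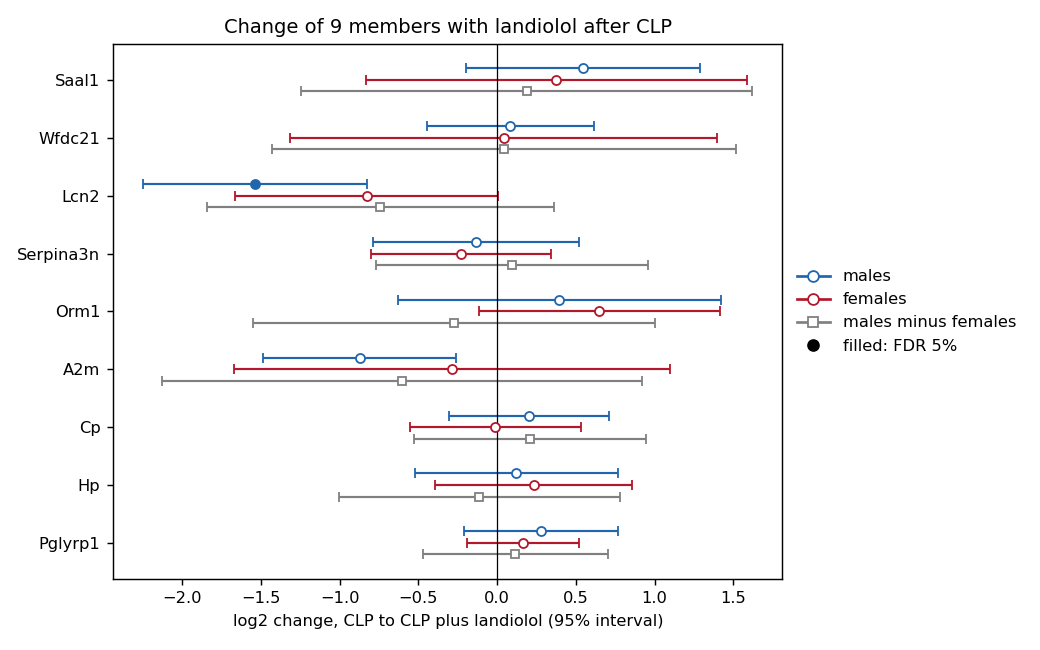
Change from CLP to CLP plus landiolol (x axis, log2, with 95% interval) of 9 genes (y axis) in males (blue), females (red) and males minus females (grey), filled where limma passed an FDR of 5%, with Serpina3n by its RefSeq-matched probe. Male Lcn2 was the only filled point, at -1.53.

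None of the other members passed this test in either sex, and 95% intervals are given in parentheses. Saal1 changed by 0.55 ± 0.35 in males (-0.20 to 1.29) and 0.38 ± 0.57 in females (-0.83 to 1.58). The RefSeq-matched Serpina3n probe changed by -0.13 ± 0.31 (-0.79 to 0.52) and -0.23 ± 0.27 (-0.80 to 0.34). Both genes overlapped between the groups in both sexes, and the intervals leave room for changes of those sizes. A2m was at 3.88 to 5.44 (median 4.95) in males with landiolol, a change of -0.87 ± 0.29 (-1.49 to -0.26; limma adjusted p = 0.161). Its dimmer probe changed by -1.18 ± 0.40, with 4 of 5 CLP and 3 of 6 landiolol arrays above background. That probe passed the filter only through the CLP group, so its fall is no independent reading. In the authors' own table of normalised values the change of the brighter A2m probe was -0.76 and passed (limma adjusted p = 0.0395). Orm1 changed by 0.39 ± 0.48 and 0.65 ± 0.36, Wfdc21 by 0.08 ± 0.25 and 0.04 ± 0.64, and Cp by 0.20 ± 0.24 and -0.01 ± 0.26. Hp and Pglyrp1 changed by at most 0.28 in either sex. For the difference of the landiolol effect between sexes, limma called 0 of 9 genes, 0 of 9 passed an unadjusted p of 0.05, and 0% of 20208 genes were called.

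Set against sham, the CLP plus landiolol group still had 7 of 9 genes called higher in males and 5 of 9 in females, with 0 lower. The shares over all genes were 2.75% higher and 2.09% lower in males and 3.47% and 2.57% in females, at an FDR of 1%. The sham arrays were shared with the contrast that chose the set. The counts and differences are therefore not independent of it, and are a description and no test of the set. The Saal1 difference was 9.72 ± 0.35 in males and 7.44 ± 0.57 in females. For the RefSeq-matched Serpina3n probe it was 4.82 ± 0.31 and 4.20 ± 0.27, and for Orm1 2.79 ± 0.48 and 2.92 ± 0.36. Male Lcn2, though lower than in CLP, was still 3.57 ± 0.33 above sham, without overlap. In the processed signal Wfdc21 was at least 37.5-fold higher than in sham in males. Its smallest log2 difference over the processing alternatives was 2.60. A2m in males was called through its dimmer probe only (limma adjusted p = 0.00544, at least 1.81-fold, with 3 of 6 landiolol arrays and 0 of 5 sham arrays above background), and its brighter probe missed the threshold (limma adjusted p = 0.0103). The dimmer probe passed the filter only through the CLP group, and without it 6 genes were called in males. Over 11 processing alternatives, the dimmer probe among them, the male A2m difference ran from 0.062 to 1.95. It passed in 4 of them, with a limma adjusted p of up to 0.874 in the others. In females the row on the slide and the group coincided for this contrast, so that a fit with the row as a term rests on the CLP arrays, which lay in both rows. In that fit 2 genes were called, and Lcn2 (limma adjusted p = 0.0838), Orm1 (0.115) and Wfdc21 (0.294) were not.

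Related lists were read for the pathway around these genes. From sham to CLP, 6 of 20 tested other positive acute-phase proteins were called higher in males and 3 of 18 in females, with 0 lower, where 4.4% and 2.09% of all genes were called higher. C3, the central complement protein, was 4.83 ± 0.23 higher in males and 3.89 ± 0.39 in females, and Hamp, the iron hormone hepcidin, 3.64 ± 0.53 and 3.28 ± 0.57. Lbp, which binds bacterial lipopolysaccharide, was 1.87 ± 0.21 and 2.03 ± 0.22 higher. Fga, a fibrinogen chain, was at least 2.50-fold higher in males, where 4 of 5 CLP arrays and 0 of 5 sham arrays were above background, so that it passed the filter only through CLP. The list median was 0.57 in males and 0.39 in females, against 0.01 and -0.01 over all probes. Each gene entered the list medians by its called probe of lowest p, or else by its brightest kept probe. The list and all-probe medians are therefore not like for like. Of 6 tested negative acute-phase proteins, whose plasma levels fall in inflammation, Rbp4, the retinol carrier, was called higher in males (1.34 ± 0.26; females 1.32 ± 0.36, not called), and Igf1, a growth factor, was called lower in females (-0.74 ± 0.15; males -0.48 ± 0.17, not called).

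Of the other secreted defence proteins, 6 of 14 were called higher in males and 8 of 13 in females, against the same 4.4% and 2.09% of all genes. Reg3b, an antimicrobial lectin, was 5.61 higher in males (SE 1.198) and 7.14 in females (SE 1.092), and S100a8, a metal-binding protein of neutrophils and monocytes, was at least 11.3-fold higher in males, with 0 of 5 sham arrays above background, and 4.15 ± 0.52 higher in females, with 1 of 5. Chi3l1, a chitinase-like protein, was 3.32 ± 0.40 and 2.73 ± 0.43 higher. Reg3g, a relative of Reg3b, was called in females (3.70 ± 0.75; males 2.78 ± 0.87, not called). The list median was 1.03 and 1.01.

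Among receptors and handling of the ligands, 4 of 17 were called higher and 1 lower in males, and 3 of 18 higher in females, with list medians of 0.08 and 0.25. Over all genes 4.4% were higher and 4.58% lower in males, and 2.09% higher in females. Hmox1, which breaks down heme, was 2.91 ± 0.28 and 3.16 ± 0.44 higher, and Slc11a1, a metal transporter of phagocytes, 2.71 ± 0.23 and 1.78 ± 0.27. Lrp1, a receptor for A2m complexes, was 1.09 ± 0.19 and 1.15 ± 0.23 higher, and Tfrc, the transferrin receptor, was called lower in males (-1.56 ± 0.23; females -0.57 ± 0.38, not called). Of the inducers, 5 of 26 were called higher in males, led by Jak2 (2.03 ± 0.27), Stat3 (1.59 ± 0.17) and Il6r (1.56 ± 0.22). In females 1 of 25 was, Stat3 at 1.06 ± 0.18, against 2.09% of all genes, and Jak2 (1.22 ± 0.35) and Il6r (1.18 ± 0.33) were not called. The list medians were 0.41 and 0.15. Differences between the sexes were not tested for these lists.

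**Figure D4:**
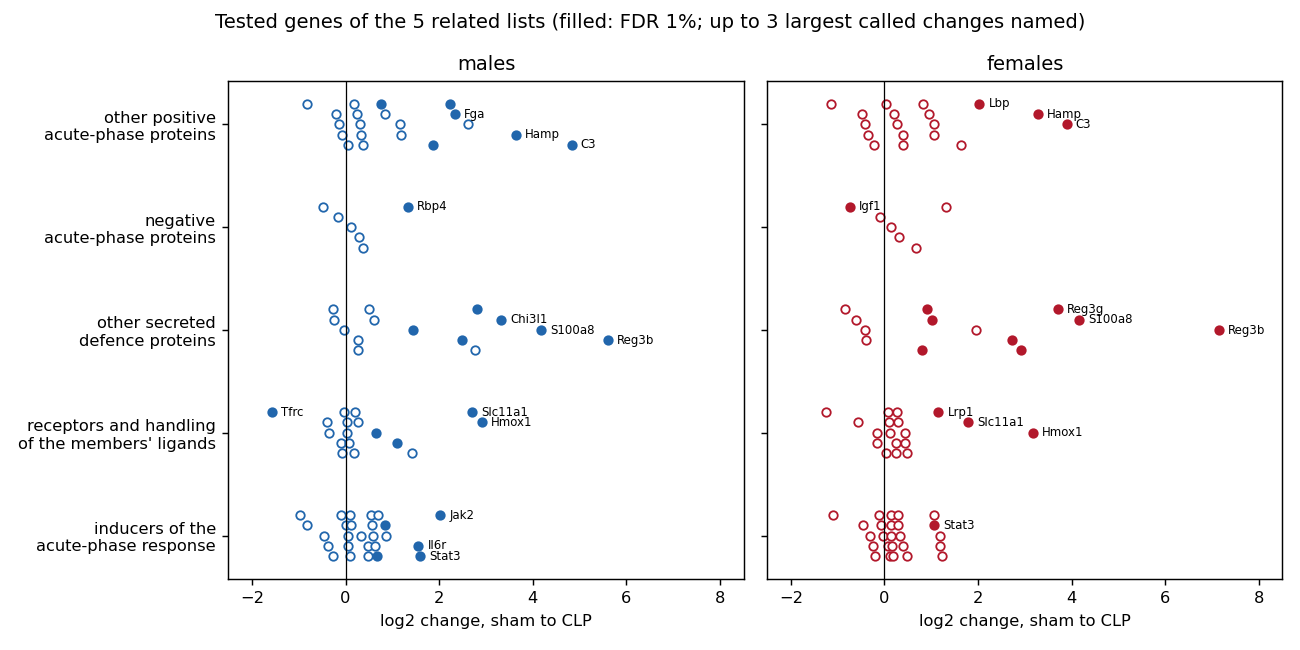
Change from sham to CLP (x axis, log2) of each tested gene of 5 related lists (y axis) in males and females, filled where limma passed an FDR of 1%, with up to 3 called genes named per list. C3 (4.83 and 3.89) and Reg3b (5.61 and 7.14) led the first and the third list in both sexes.

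With landiolol, limma called 5 genes of these lists in males and 0 in females at an FDR of 5%. In males these were 0 of 20 other positive and 1 of 6 negative acute-phase proteins, 1 of 14 defence proteins, 1 of 17 receptors and 2 of 26 inducers, where 0.983% of all genes were called higher and 0.841% lower. In females 0.0668% and 0.0462% of all genes were called. Il6r, the IL-6 receptor chain, fell by 1.38 ± 0.21 (limma adjusted p = 0.00496), Hmox1 by 1.75 ± 0.27 (limma adjusted p = 0.00496), Stat3 by 0.82 ± 0.17 (limma adjusted p = 0.0236) and Wfdc1 by 1.18 ± 0.26 (limma adjusted p = 0.0314), while Igf1 rose by 0.85 ± 0.18 (limma adjusted p = 0.0307). The same genes in females changed by -0.92 ± 0.32, -1.29 ± 0.42, -0.29 ± 0.17, -1.04 ± 0.23 and 0.55 ± 0.15, and none passed.

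Markers of other cells moved beside these results. Of 11 neutrophil markers S100a8 and S100a9 passed the filter and the other 9 did not, with a mean level per array of 3.02 to 3.82 in male sham, 5.64 to 8.52 in male CLP and 6.87 to 8.67 in male CLP plus landiolol, and 2.64 to 4.50, 5.87 to 7.62 and 6.27 to 9.05 in females. Elane, Ngp, Ltf and Mmp8 were above background on 0 arrays. All 8 macrophage and monocyte markers passed, 4 were called higher after CLP in males and 3 in females, and their mean level per array lay between 9.04 and 9.53 in male sham and between 9.91 and 10.71 in male CLP. Of 10 hepatocyte markers, Alb, Apoh, Cps1 and F2 were above background on 0 arrays of either sex and Ttr on all 32. Cyp2c11 was above background on 15 of 16 female and 0 male arrays, where sex and slide cannot be told apart. Only Ttr was tested in males, and only Ttr and Cyp2c11 in females, and neither was called after CLP. Of 4 erythroid markers, Slc4a1 was called lower after CLP, at -3.25 ± 0.35 in males and -2.96 ± 0.45 in females. Hba1 changed by -0.02 ± 0.61 in males and 1.65 ± 0.87 in females, and Hbb by 2.60 ± 1.26 in females. Neither was called, and Hbb in males and Alas2 in both sexes were not tested. Of 5 fibroblast markers, Col1a1 (-2.16 ± 0.35) and Col3a1 (-2.05 ± 0.36) were lower and Tcf21 (1.25 ± 0.26) higher in males, and 0 were called in females. No tested marker of cardiac myocytes, endothelial cells, mesothelial cells or T and B cells was called after CLP in either sex. Of 4 mesothelial markers only Wt1 was tested, and of 6 T and B cell markers only Cd3g. Cd3g changed by -1.36 ± 0.33 in males (limma adjusted p = 0.0101) and -0.67 ± 0.45 in females. The part of these cells in the levels of the set was not tested.

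Genes among those most like 4 members over the 16 arrays of each sex were, by Pearson r in males and in females, Siglec5 (0.964 and 0.954) and Cxcl13 for Saal1, Cpne8 (0.955 and 0.931), Hamp and Mmp24 for Lcn2, Apod (0.699 and 0.719), Slc7a5 and Reg3b for A2m, and Cdo1 (0.972 and 0.954), C3 and Cxcl13 for Serpina3n. These arrays share slides and fall into groups that differ, so the values mostly follow the differences between groups.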

How the data were processed

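Left ventricle RNA of 32 rats was hybridised to Agilent 1-colour arrays. The deposited scanner files hold spot intensity values, which per the file headers were background-subtracted by Agilent Feature Extraction 10.5. A table of log2 values, quantile-normalised by the authors, was used as an alternative. Its columns followed the scanner values of their own array (Spearman at least 0.995).

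Here log2 of the processed intensity was taken, outlier-flagged spots were dropped, replicate spots were averaged, and quantile normalisation was run within each sex on 16 arrays (R 4.3.3). For the interaction and every male minus female difference the 32 arrays were normalised together. Probes were kept when well above background on 80% of the arrays of at least 1 group, 25864 in males and 25394 in females. limma 3.58.1 (lmFit and eBayes) was fitted to the 3 groups of a sex, with Benjamini-Hochberg adjustment over all kept probes, at an FDR of 1% against sham and 5% for landiolol against CLP and for the interaction, fitted on all 32 arrays. The limma and SAM steps were tested on simulated data.

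The members, gene lists and markers were chosen with earlier results of these data known. Each member was to be named by its brightest probe, and others where they went another way. From each list up to 3 called genes of the largest change were named per sex and comparison. For likeness, the 3 genes with the highest lower r of both sexes were taken, of which 1 is not reported here. The groups come from the labels. Alternatives covered normalisation, background correction, filter, samples in the fit, slide, row, prior, source of values, SAM and single arrays left out. The number of arrays limits the precision, and depth is not defined for arrays.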

Additional observations from a re-analysis of the deposited data

Results flagged for a closer look

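Wfdc21 in male CLP replicate 4 was at 9.26 on the log2 scale, against 8.18 for the next highest array of its group, a gap that was large for the range of 5 arrays by Dixon's test. It was 1 of 54 groups of arrays looked at, and such a test marks some groups by chance alone.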

How the results depend on the processing

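The counts of genes called kept within 1.5 times of their value under the normalisation, background, prior, slide and SAM alternatives tried. For landiolol against CLP in males the count of 1 became 0 without the filter, 0 with only the 2 groups compared and 2 in the authors' table. With the row on the slide as a term the female counts became 3 for CLP against sham and 2 for CLP plus landiolol against sham, where row and group coincide. Leaving out single arrays gave 0 to 1 genes for landiolol against CLP in males and 0 in females, 6 to 7 and 4 to 5 against sham for CLP plus landiolol, and 6 to 7 and 4 to 5 for CLP against sham, and 0 for the difference between the sexes. Male Lcn2 lost its landiolol call without CLP plus landiolol replicate 3, 4, 5 or 6 or CLP replicate 2, 3, 4 or 5 (limma adjusted p up to 0.0982). Female Wfdc21 in CLP plus landiolol lost its call against sham without CLP plus landiolol replicate 2 or 5 or sham replicate 1 or 5 (limma adjusted p up to 0.0136), and without the filter on dim probes (limma adjusted p = 0.0116). For CLP against sham, female Wfdc21 was called in only 5 of 16 fits that left out a single array, and male Orm1 in 11 of 16. Signs turned only for changes that were not called. With the row as a term, the landiolol change in females was 0.92 for A2m, -0.25 for Hp, -0.12 for Pglyrp1 and 0.081 for the RefSeq-matched Serpina3n probe, the difference from sham with landiolol in females was -0.62 for Hp, -0.021 for Pglyrp1 and -0.58 for the brightest Serpina3n probe, and the difference between the sexes was 0.39 for Hp, -0.24 for the RefSeq-matched Serpina3n probe and -0.22 for Wfdc21. With the slide as a term, Cp changed by 0.0018 with landiolol in females and the sex difference of Wfdc21 was -0.029. By its other probe Cp changed by 0.042 in females and -0.065 in males, with a sex difference of -0.11. By its other probe the flat Serpina3n difference from sham with landiolol in females was -0.058, and -0.00253 in the authors' table. Leaving out single arrays turned signs within these ranges: the sex difference from -0.95 to 0.11 for A2m, -0.40 to 0.086 for Hp, -0.64 to 0.092 for Orm1, -0.0061 to 0.25 for Pglyrp1, -0.016 to 0.38 for the brightest Serpina3n probe, -0.10 to 0.21 for the RefSeq-matched one and -0.19 to 0.34 for Wfdc21; the landiolol change from -0.11 to 0.13 for female Cp, -0.092 to 0.32 for male Hp, -0.28 to 0.047 and -0.15 to 0.24 for the brightest Serpina3n probe in females and males, and -0.25 to 0.27 and -0.040 to 0.34 for Wfdc21 in females and males; and the difference from sham with landiolol from -0.039 to 0.24 and -0.091 to 0.36 for the brightest Serpina3n probe in females and males. The cause was not tested for any of these. Wfdc21, A2m and Hpx are limited by signal near background. No paired analysis was possible because replicate numbers were given in accession order and tie no arrays across groups.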
